A study of Homo sapiens with 4 samples.

Results

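The ATP-binding cassette (ABC) transporter genes were examined in transcriptome data of 2 human pancreatic cancer cell lines, SW1990 and PANC-1, with and without radiation. The members were the genes whose symbol is ABC followed by a subfamily letter from A to G and a number, and 46 of the 58174 gene rows met this rule. Of these, 34 had at least 20 counts over the 4 libraries, 5 had between 1 and 19 counts, and 7 were listed at 0 in all 4 libraries. The rule used names and a count minimum only, and the family was picked for description with earlier results of these data known. TAP1, TAP2 and CFTR belong to the same family under other symbols and are described apart.

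ABC proteins bind and hydrolyse ATP, and most of them use it to move a substrate across a membrane. Subfamilies B, C and G hold the exporters that pump drugs and their conjugates out of cells, for which the family is best known in cancer. Subfamily A moves lipids, subfamily D serves peroxisomes and lysosomes, and subfamilies E and F have no membrane domain and act around the ribosome.

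The 4 groups were SW1990 unirradiated, SW1990 after 10 Gy of X-rays, PANC-1 unirradiated and PANC-1 after 10 Gy of X-rays, with 1 library each. Both lines were used at passages 14 to 16 with 10% fetal bovine serum, PANC-1 in DMEM and SW1990 in 1640 medium, so line and medium cannot be told apart. The time between radiation and RNA collection is not given in the sources used here. The SW1990 libraries held 17851815 (unirradiated) and 18305682 (irradiated) counts on gene rows, and the PANC-1 libraries 23323266 (unirradiated) and 20026595 (irradiated). A floor of 3 counts corresponded to 0.168, 0.164, 0.129 and 0.15 CPM, the count relative to a library's total, in that order, which is also the order of any 4 values given below. Each value below rests on 1 library, and no difference had a replicate check. Intervals are 95% intervals of the reads, exact unless stated, and cover counting error only.

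The labelled cell types were first checked against markers. The epithelial keratins KRT8, KRT18 and KRT19 were abundant in both lines. EPCAM, an epithelial adhesion molecule, had 7348 and 7552 counts in SW1990 and 108 and 113 in PANC-1, unirradiated first. CDH1, which encodes E-cadherin, had 9906 and 14345 counts in SW1990 and 59 and 65 in PANC-1. EPCAM and CDH1 were thus low in PANC-1. MUC1, a mucin of the apical membrane, went the other way with 56 and 85 counts in SW1990 and 313 and 462 in PANC-1, and KRT7 was low in both lines with 99, 102, 145 and 97 counts. The 7 duct-like epithelium markers summed to 5202 and 6610 CPM in SW1990 and to 2366 and 2805 CPM in PANC-1, with KRT8 the most abundant and none at 0. The 10 markers of other cell types summed to 8.18 and 11.7 CPM in SW1990 and to 82.8 and 94.8 CPM in PANC-1. In PANC-1, 8 of these 10 were at 0 counts in both libraries, and the sum came from CD68 with 967 and 583 counts and COL1A1 with 965 and 1315. The leukocyte gene PTPRC, the endothelial gene PECAM1 and the acinar gene CPA1 had between 0 and 2 counts in all libraries. PRSS1, the other acinar gene of the list, had 12 and 8 counts in SW1990 and 0 in both PANC-1 libraries.

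The family as a whole took a like share of the reads in all libraries. The 46 members summed to 1970 CPM in unirradiated SW1990, 2094 in irradiated SW1990, 2183 in unirradiated PANC-1 and 2353 in irradiated PANC-1. FPKM, a level scaled to transcript length and to sequenced fragments, allowed levels to be compared between genes. By FPKM, 18 members were at 10 or above in each SW1990 library, against 15 in unirradiated and 17 in irradiated PANC-1. A similar number, 21 or 22 per library, stayed under an FPKM of 1. The members at 0 in all libraries were ABCA9, ABCB5, ABCC8, ABCC13, ABCD2, ABCG5 and ABCG8. Among them are ABCC8, the sulfonylurea receptor of the beta cell potassium channel, and ABCG5 with ABCG8, which together form the plant sterol exporter. ABCA6, ABCA8, ABCC9, ABCC12 and ABCG4 had 1 to 19 counts in all.

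**Figure D1:**
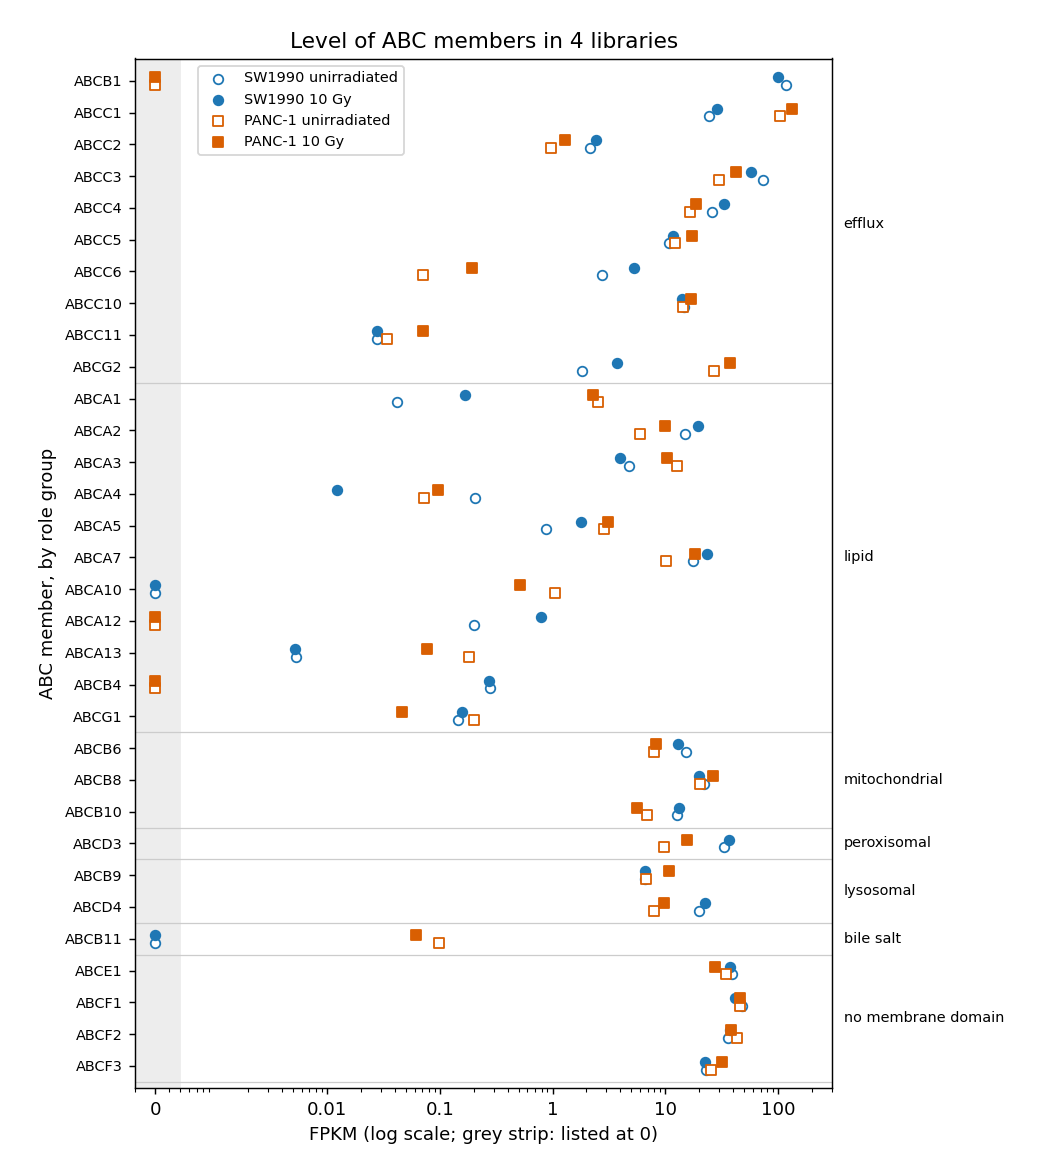
FPKM on a log axis of ABC members with at least 20 counts over the 4 libraries, grouped by role, with 1 point per library, and values of 0 drawn in the strip at the left. ABCB1 is at 117 and 99.4 in SW1990 and at 0 in PANC-1, ABCC1 reaches 104 and 132 in PANC-1, and ABCE1 and the ABCF genes overlap across all 4 libraries.

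The lines differed in which drug exporter led. ABCB1, or P-glycoprotein, the classical multidrug exporter, lies on chromosome 7 (GRCh38, 87503633 to 87713323, minus strand). It had 5365 and 6314 counts in SW1990, and 0 counts in both PANC-1 libraries. The level by FPKM was 117 and 99.4 in SW1990, the highest of the family there, and 0 in PANC-1. With the PANC-1 count set to the floor of 3 counts per library, ABCB1 was at least 2014-fold higher in SW1990 without radiation and at least 2176-fold higher after it. It took 15.3% and 16.5% of the family's counts in SW1990.

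ABCC1 and ABCG2 were instead higher in PANC-1 than in SW1990. ABCC1, or MRP1, exports glutathione conjugates and drugs, and it had 2515 and 3111 counts in SW1990 and 16658 and 14657 in PANC-1. Its FPKM was 24.6 and 28.8 in SW1990 and 104 and 132 in PANC-1. Both PANC-1 values lay above both SW1990 values, and the log2 difference of SW1990 against PANC-1 was −2.56 without radiation (−2.62 to −2.50) and −2.19 after it (−2.24 to −2.13). ABCC1 alone took 32.7% and 31.1% of the family's counts in PANC-1. ABCG2, or breast cancer resistance protein, exports drugs and urate (chromosome 4, 88090264 to 88231322, minus strand). ABCG2 had 132 and 213 counts in SW1990 and 2985 and 3503 in PANC-1, with FPKM of 1.83 and 3.75 against 27.2 and 37.2. It was 20.1-fold lower in SW1990 without radiation (log2 interval of −4.59 to −4.08) and 15.9-fold lower after it (−4.20 to −3.79). No library of one line reached the range of the other for any of these 3 exporters.

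Stretches of 30 bases upstream of RefSeq start sites of ABCB1 and ABCG2 are shown because these exporters had the lowest adjusted p of the family between the lines (edgeR, given below), in opposite directions (RefSeq sequence, GRCh38.p14, written 5′ to 3′ on the gene's strand). The letters CCAAT and GGGCGG, known as the CCAAT box and the GC box, were searched on both strands in the 250 bases before each start site, together with TATAAA, and capitals mark the match. The ABCB1 windows lie at chr7:87600946-87600975, with the match 79 bases before the start site, and at chr7:87601105-87601134, with the match 238 bases before it. The ABCG2 windows lie at chr4:88159055-88159084 and chr4:88158944-88158973, upstream of both of its RefSeq start sites in the table.
ABCB1 near: gtggtgaggctgATTGGctgggcaggaaca
ABCB1 far: gttgaaatgtccCCAATgattcagctgatg
ABCG2 far: agccccgagggaGGGCGGtggtaccagtcc
ABCG2 near: cacgcctcacccCCGCCCgcgaaccccgac
Promoters of 35 members were found, with 53 start sites. The GC box letters were in 47.2% of these 53 and in 42.6% of 35116 promoters of all genes. The CCAAT letters were in 20.8% of the member promoters and in 32% of all, and TATAAA in 11.3% and 10.7%. A match is a description of the letters and not of a site in use. The windows shown lie inside the gene spans given above, not before the 5′ ends of those spans.

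The MRP genes next to ABCC1 did not follow one line. ABCC6, or MRP6, which is needed for ATP release and so for pyrophosphate in plasma, had 148 and 275 counts in SW1990 and 4 and 5 in PANC-1. Its FPKM was 2.75 and 5.31 in SW1990 and 0.0705 and 0.192 in PANC-1. ABCC6 was 41.7-fold higher in SW1990 without radiation (log2 interval of 3.99 to 7.28) and 56.9-fold higher after it (4.59 to 7.46), wide intervals from the few PANC-1 counts. It lies on chromosome 16 from 16148928 to 16223522, and ABCC1 ends on the same chromosome at 16143074, so these neighbours differed between the lines in opposite directions. ABCC6 has near-identical pseudogenes, of which ABCC6P1 had 20, 29, 2 and 3 counts and ABCC6P2 had 4, 4, 13 and 19, and reads may have been divided between them.

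ABCC3, or MRP3, a basolateral exporter of glucuronides, had 3012 and 2694 counts in SW1990 and 1941 and 2277 in PANC-1. Its FPKM of 73.1 and 57.9 placed it second in SW1990, and in PANC-1 it was at 30.1 and 42.1. ABCC4, or MRP4, which exports cyclic nucleotides and prostaglandins, had 2897 and 3792 counts in SW1990 and 2421 and 2216 in PANC-1, with FPKM of 26, 33, 16.7 and 18.7. From counts both were higher in SW1990 by less than 2-fold, ABCC3 by a log2 difference of 0.81 without radiation and 0.29 after it, and ABCC4 by 0.43 and 0.82. Without radiation ABCC3 passed the 2-fold threshold by total counts (1.02) and from FPKM (1.28). ABCC2, or MRP2, an apical exporter of conjugates, was low, with 142, 187, 107 and 139 counts and FPKM of 2.15, 2.45, 0.972 and 1.28. ABCC5, or MRP5, which exports nucleotide analogues, had 1048, 1267, 1458 and 1620 counts and FPKM of 10.8, 11.6, 12.2 and 17.4. ABCC10, or MRP7, had 1009, 1010, 1324 and 1335 counts and FPKM of 14.7, 14, 14.4 and 17. From counts, ABCC2, ABCC5 and ABCC10 differed between the lines by less than 2-fold, with log2 differences of 0.58, −0.31 and −0.22 without radiation. From FPKM these were 1.15, −0.18 and 0.02, so that ABCC2 was past 2-fold and ABCC10 turned sign.

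The lipid group held members on both sides. ABCA1, which exports cholesterol and phospholipid to apolipoprotein A-I, had 10 and 40 counts in SW1990 and 730 and 575 in PANC-1, with FPKM of 0.0418, 0.167, 2.53 and 2.29. It was 64.8-fold lower in SW1990 without radiation (log2 interval of −7.08 to −5.13) and 13.9-fold lower after it (−4.30 to −3.33). APOA1, its acceptor protein, was at 0 counts in all libraries. ABCA3, a phospholipid transporter known from lamellar bodies of the lung, had 467 and 444 counts in SW1990 and 1903 and 1543 in PANC-1, with FPKM of 4.76, 3.97, 12.6 and 10.4. Both PANC-1 levels of ABCA3 exceeded both SW1990 levels, with log2 differences of −1.86 and −1.75. ABCA5, a lysosomal member linked to cholesterol handling, had 90 and 99 counts in SW1990 and 291 and 209 in PANC-1, with FPKM of 0.88, 1.79, 2.87 and 3.08. ABCA10, its neighbour on chromosome 17, had 0 counts in both SW1990 libraries and 71 and 39 in PANC-1, with FPKM of 0, 0, 1.05 and 0.514. The exons of ABCA5 and ABCA10 share 318 bases. ABCA10 was at least 21-fold lower in SW1990 without radiation and at least 12.6-fold lower after it. ABCA12, the keratinocyte lipid transporter, showed the opposite pattern, with 41 and 161 counts in SW1990 and 0 in both PANC-1 libraries. ABCA12 was at least 15.4-fold and 55.5-fold higher in SW1990, at an FPKM that stayed under 1 (0.203 and 0.792). ABCB4, the phosphatidylcholine floppase that lies beside ABCB1, had 17 and 18 counts in SW1990 and 0 in PANC-1, so both genes of this pair were at 0 in PANC-1.

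In subfamily D, ABCD3 and ABCD4 were higher in SW1990. ABCD3, or PMP70, which imports branched chain acyl-CoA, had 2228 and 2509 counts in SW1990 and 987 and 1187 in PANC-1, with FPKM of 33.3, 36.6, 9.79 and 15.4. ABCD3 was 2.54-fold higher in SW1990 without radiation (log2 interval of 1.24 to 1.46) and 2.19-fold higher after it (1.03 to 1.23). ABCD2, a peroxisomal importer of fatty acyl-CoA, was at 0. ABCD4, the lysosomal cobalamin transporter, had 697 and 734 counts in SW1990 and 389 and 313 in PANC-1, with FPKM of 19.9, 22.3, 7.89 and 9.81, and was 2.02-fold higher in SW1990 without radiation (0.83 to 1.20) and 2.42-fold higher after it (1.08 to 1.47).

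**Figure D2:**
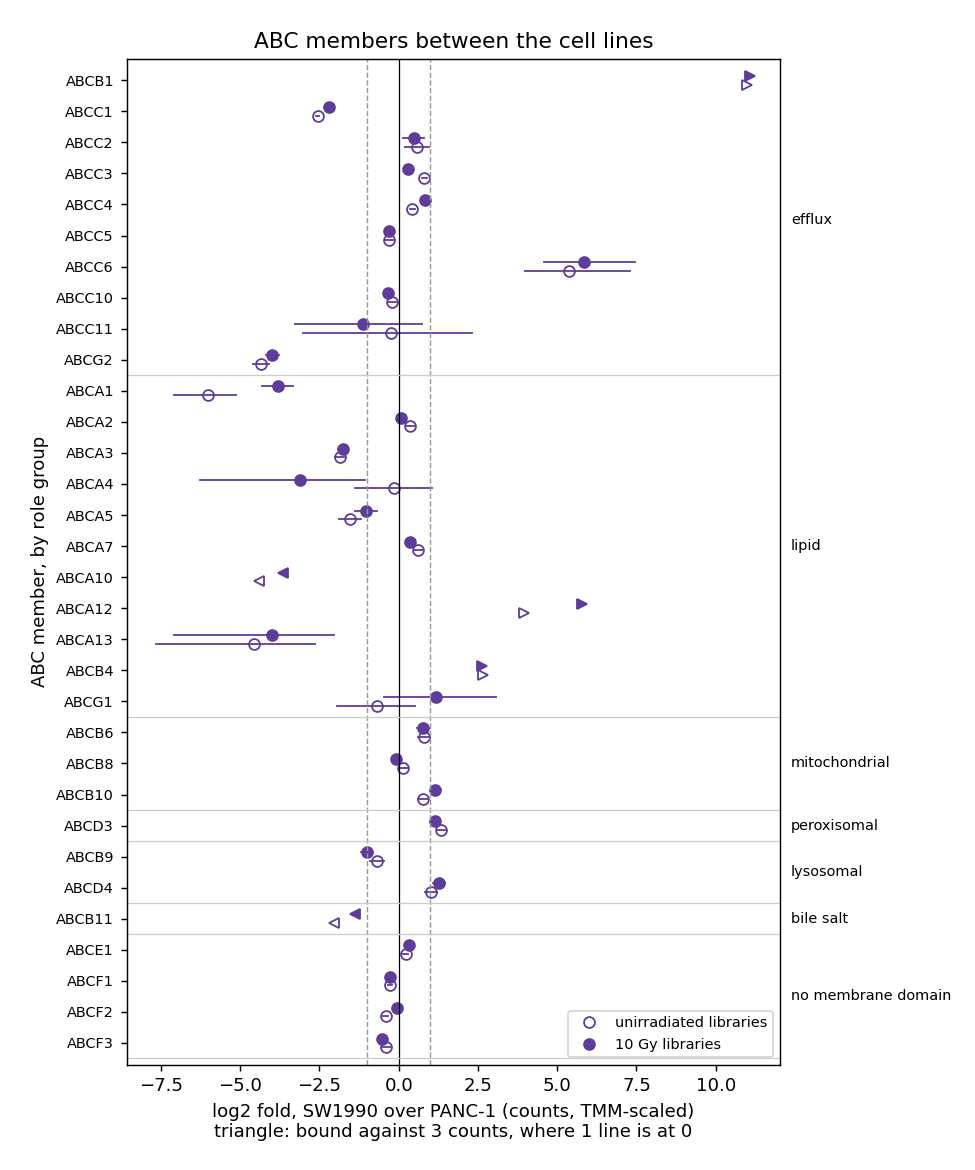
Log2 difference of SW1990 against PANC-1 (horizontal axis) for ABC members with at least 20 counts, by role, with open symbols for unirradiated and filled ones for irradiated libraries, lines for exact 95% counting intervals, and triangles for bounds against 3 counts where one line is at 0. ABCB1 and ABCC6 lie far to the SW1990 side and ABCA1, ABCG2 and ABCC1 to the PANC-1 side with and without radiation.

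Of the 4 mitochondrial half-transporters, 2 were past 1.5-fold between the lines without radiation and 3 after it. Of the 4 members without a membrane domain, 0 were past 1.5-fold in either comparison. Of the 20017 genes with at least 20 counts, 63% were past it without radiation and 61.9% after it, and no test compared these shares. ABCB10, linked to heme synthesis, had 1029 and 1125 counts in SW1990 and 682 and 519 in PANC-1. Its log2 difference was 0.76 without radiation and 1.16 after it. ABCE1, which splits ribosomes for recycling, had 2897, 2800, 2790 and 2308 counts. ABCF1, which acts in translation, had 2730, 2509, 3703 and 3109 counts and FPKM of 47.4, 41.3, 45.8 and 45.7. ABCF2, a cytosolic ATPase, had 2658, 2702, 3989 and 2894 counts and FPKM of 35.6, 37.3, 42.8 and 38.1. ABCE1, ABCF1, ABCF2 and ABCF3 together made up 509, 483, 500 and 477 CPM, and the differences of these 4 genes between the lines ranged from −0.41 to 0.23 without radiation and from −0.53 to 0.33 after it.

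Between the unirradiated libraries, a read test (edgeR, conditional on the reads of 2 libraries) called 11 of 27 tested members at a q-value under 0.001 and a fold change above 2, where 35.9% of all genes tested were called. The 4 called higher in SW1990 were ABCB1, ABCC6, ABCD3 and ABCD4 (17.3% of genes were higher), and the 7 called lower included ABCA1, ABCA3, ABCA5, ABCA10, ABCC1 and ABCG2 (18.6% of genes were lower). ABCD4 lost the call with DESeq2 size factors, and ABCA5, ABCD3 and ABCD4 lost it with an assumed coefficient of variation of 0.2. Between the irradiated libraries, 12 of 26 were called, against 35.2% of genes, with 5 higher (17.2% of genes) and 7 lower (18% of genes). ABCB10 (2.24-fold higher) and ABCB9 (2-fold lower) joined the calls there, and ABCA10 was under the FPKM minimum. ABCB9 stood at the threshold and was not called by total counts (−0.92) or from FPKM (−0.72), nor was ABCA5 (−0.95 and −0.78). With an assumed coefficient of variation of 0.2, ABCA5, ABCB9, ABCB10, ABCD3 and ABCD4 lost the call between the irradiated libraries. ABCB9, a lysosomal peptide transporter with 277, 303, 499 and 627 counts, shares up to 20.7% of its exon bases with a gene on the other strand, and how strand was treated in counting is not stated. Among members with an FPKM of at least 1 in both libraries, 6 of 21 were called without radiation, against 25.2% of such genes, and 9 of 23 after it, against 24.7%. Without the FPKM minimum 16 of 37 were called between the unirradiated libraries, against 25.9% of genes, and at a fold above 1.5 16 of 27, against 50.7%. By q-value alone 25 of 27 were called, against 67.4%.

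All 4 libraries were also fitted together by edgeR's quasi-likelihood test with line and radiation as terms, in which the spread came from 1 residual degree of freedom. Of 32 members tested, 19 differed between the lines at an adjusted p under 0.05, 9 higher and 10 lower in SW1990, where 43.6% of 18180 genes differed (21.4% higher and 22.2% lower). The adjusted p by edgeR was 0.000804 for ABCB1 and for ABCG2, 0.00131 for ABCC1, 0.00162 for ABCC6 and 0.00507 for ABCA1. DESeq2 gave 14 of the 31 members with an adjusted p, against 35% of such genes. The share of members called was 40.7% without and 46.2% after radiation by the read test and 59.4% by the fit of 4 libraries, near or above the share of genes, and no test compared them.

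After radiation, no member of the family passed the thresholds of the read test in either line. In SW1990, 0 of 25 tested members were called, where 4.13% of 15731 genes were. In PANC-1, 0 of 25 were called, where 4.7% of 15159 genes were. By q-value alone, whatever the size of the difference, 10 of 25 members were called in SW1990, against 26.2% of genes, and 8 of 25 in PANC-1, against 34.7%. The quasi-likelihood test by edgeR over all 4 libraries called 0 of 32 members and 0 of 18180 genes (0%) for radiation. At an unadjusted p under 0.05 it gave 3 of 32 members, ABCA7, ABCA12 and ABCG2, against 4.58% of genes, with an adjusted p of 0.936 for each. DESeq2 gave an adjusted p to 20 of the 32 members and called 0 of these, against 0.538% of the 7254 genes with one, and gave 2 of 32 members an unadjusted p under 0.05, against 2.35% of genes. The median log2 difference over the 34 members with at least 20 counts was 0.10 in SW1990 and 0.00 in PANC-1, beside 0.00 in each line over 20017 genes with the same minimum. In SW1990 21 of these members were higher and 11 lower in the irradiated library, and in PANC-1 15 were higher and 16 lower, or 19 and 12 with libraries scaled by total counts.

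**Figure D3:**
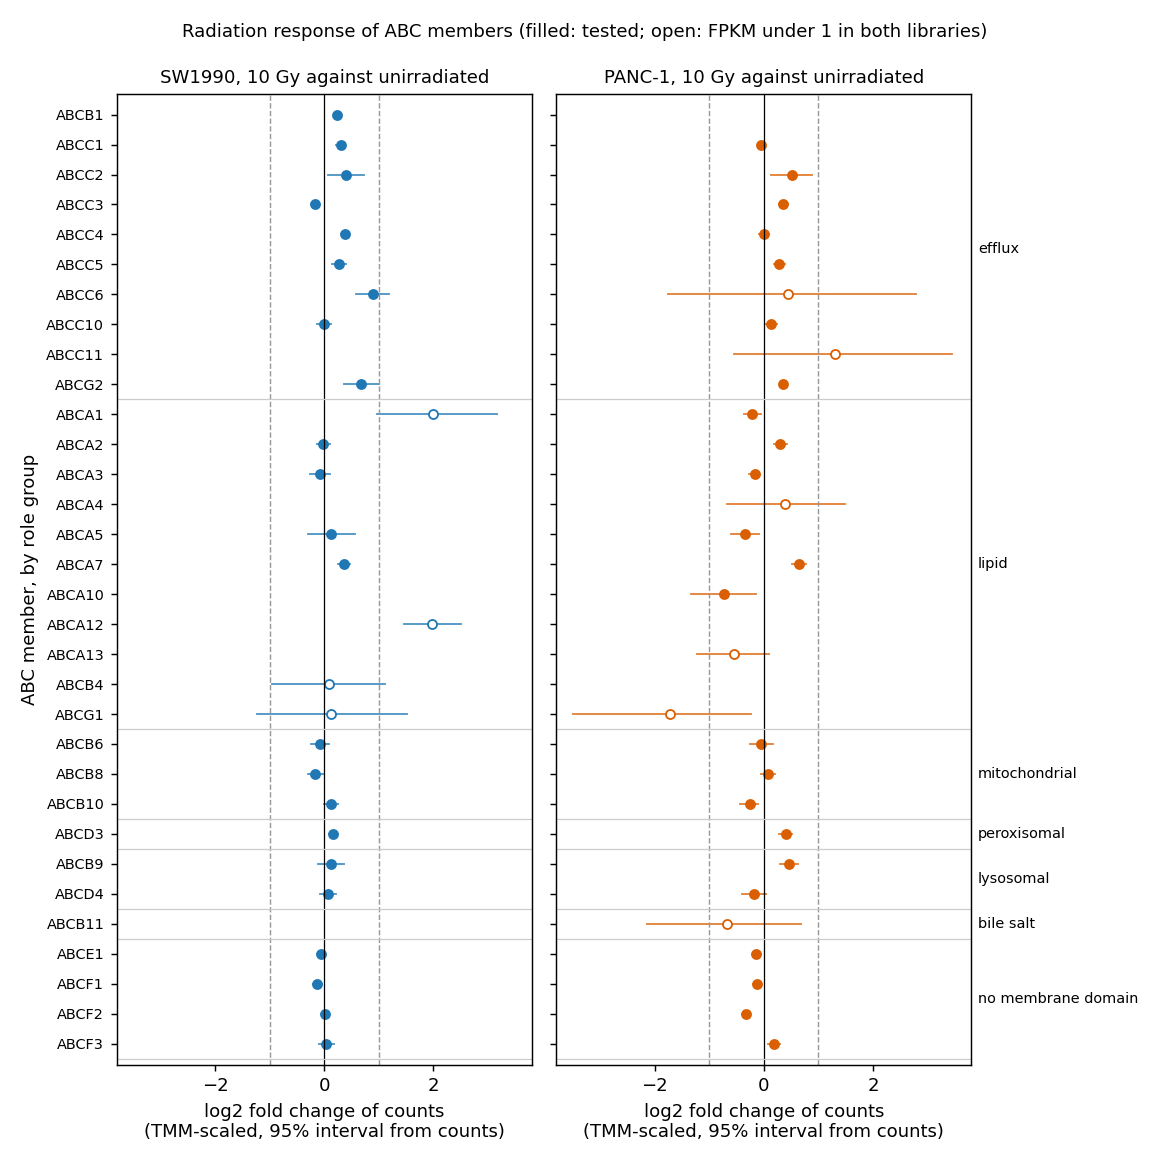
Log2 difference of irradiated against unirradiated libraries, with exact 95% counting intervals, for ABC members with more than 3 counts in both libraries of the line, by role, filled where tested and open where the FPKM was under 1 in both. Most points lie within 2-fold of 0 (the dashed lines), and ABCA1 (1.99) and ABCA12 (1.97) in SW1990 and ABCG1 and ABCC11 in PANC-1 lie beyond.

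Among the tested members of the exporter role group, 7 of 9 were higher in the irradiated library of SW1990 and 6 of 7 in that of PANC-1. Their median log2 differences were 0.30 and 0.28. The group holds ABCC6, tested in SW1990 only, which the list of drug exporters leaves out. Of all genes tested, 49.3% and 48.3% were higher, with medians of −0.01 and −0.02. None of the tested exporters passed the fold threshold. For ABCG2 the log2 difference was 0.68 in SW1990 (0.36 to 1.01) and 0.36 in PANC-1 (0.29 to 0.43), and for ABCC5 it was 0.27 and 0.28. ABCC6 was higher by 0.89 in irradiated SW1990 (0.59 to 1.19), and its 4 and 5 counts in PANC-1 left the difference there undetermined (−1.76 to 2.79). ABCB1 was higher by 0.23 in irradiated SW1990 from counts (0.18 to 0.28), whereas its FPKM was lower there by −0.24 on the log2 scale, so its direction rested on the measure. ABCC4 was higher by 0.38 in SW1990 and at 0.00 in PANC-1, where it counts among the higher ones but turned to −0.03 with DESeq2 size factors.

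ABCC1 and ABCC3 leaned to opposite directions in the lines. For ABCC1 the log2 difference was 0.30 in SW1990 (0.22 to 0.38) and −0.05 in PANC-1 (−0.09 to −0.02), and in PANC-1 it turned to 0.04 when libraries were scaled by total counts and to 0.35 from FPKM. For ABCC3 it was −0.17 in SW1990 (−0.24 to −0.09) and 0.36 in PANC-1 (0.27 to 0.45), and FPKM gave −0.33 and 0.49. Over the 23 members tested in both lines, 5 had intervals above 0 in both (ABCA7, ABCC2, ABCC5, ABCD3 and ABCG2), 1 had intervals below 0 in both (ABCF1), and 2 had opposite ones (ABCC1 and ABCC3). Of 13173 genes tested in both lines, 9.72% were above 0 in both, 10.7% below in both and 13.3% opposite. This count was chosen after the values were seen.

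Among the 34 members with at least 20 counts, differences past 2-fold from counts were found only for those with an FPKM under 1 in both libraries, in 3 members in SW1990 and 2 in PANC-1, beside 13.7% and 14.7% of the 20017 genes. In SW1990 these were the lipid members ABCA1, ABCA12 and ABCA4, and in PANC-1 ABCG1, an exporter of cholesterol, and ABCC11, or MRP8. ABCA4, known from photoreceptors, had 12 and 2 counts in SW1990 (−5.79 to −0.42). In PANC-1, ABCG1 had 18 and 5 (−3.50 to −0.24) and ABCC11 had 4 and 9 (−0.54 to 3.45). ABCC11 shares 4.04% of its exon bases with a gene on the other strand that had 1495 and 1427 counts in PANC-1. How strand was treated in counting is not stated. ABCA1 with 10 and 40 counts in SW1990 gave a log2 difference of 1.99 (0.97 to 3.16), against −0.21 in PANC-1 (−0.37 to −0.05). ABCA12 with 41 and 161 counts gave 1.97 in SW1990 (1.46 to 2.50). Both had an FPKM under 1 in both SW1990 libraries and so were not tested. Without that minimum both were called higher in SW1990, 2 of 35 members against 3.18% of genes, and 0 of 34 members were called in PANC-1, against 3.48%. ABCA7, a phospholipid transporter related to ABCA1, had 1259 and 1634 counts in SW1990 and 927 and 1325 in PANC-1. It was higher in the irradiated library of each line, by 0.37 (0.26 to 0.48) and 0.65 (0.52 to 0.77), with FPKM of 17.5 and 23.4 in SW1990 and 10.2 and 18.3 in PANC-1. With a fold threshold of 1.5, ABCC6 and ABCG2 were called in SW1990, 2 of 25 against 9.26% of genes, and ABCA7 in PANC-1, 1 of 25 against 11.7%. With the fold taken from FPKM, ABCG2 was called in SW1990, 1 of 25 against 3.76% of genes.

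In the remaining groups no member with at least 20 counts was past 2-fold from counts in either line. ABCB9 stood at 0.12 (−0.12 to 0.36) in SW1990 and at 0.46 (0.29 to 0.63) in PANC-1. ABCD3 was higher in both irradiated libraries, by 0.16 (0.08 to 0.25) in SW1990 and 0.40 (0.27 to 0.52) in PANC-1. ABCF2 stood at 0.02 in SW1990 and at −0.33 (−0.40 to −0.26) in PANC-1. The 4 mitochondrial members had medians of −0.13 and −0.06, and the 4 members without a membrane domain had medians of −0.02 and −0.13.

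Counts and FPKM did not always give the same direction. Of 25 tested members, 4 had opposite signs in SW1990 (ABCA2, ABCB1, ABCB9 and ABCF3) and 5 in PANC-1, among them ABCA5, ABCB6, ABCC1 and ABCD4. In PANC-1 the FPKM difference exceeded the count difference for 20 of 25 members, with a median excess of 0.13 on the log2 scale. Scaling by total counts in place of TMM, the scaling used for counts, moved the PANC-1 count differences by 0.09. It moved those of SW1990 by −0.03. How much of the excess came from scaling was not tested. ABCA5 in SW1990 was at 0.13 from counts and at 1.03 from FPKM.

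**Figure D4:**
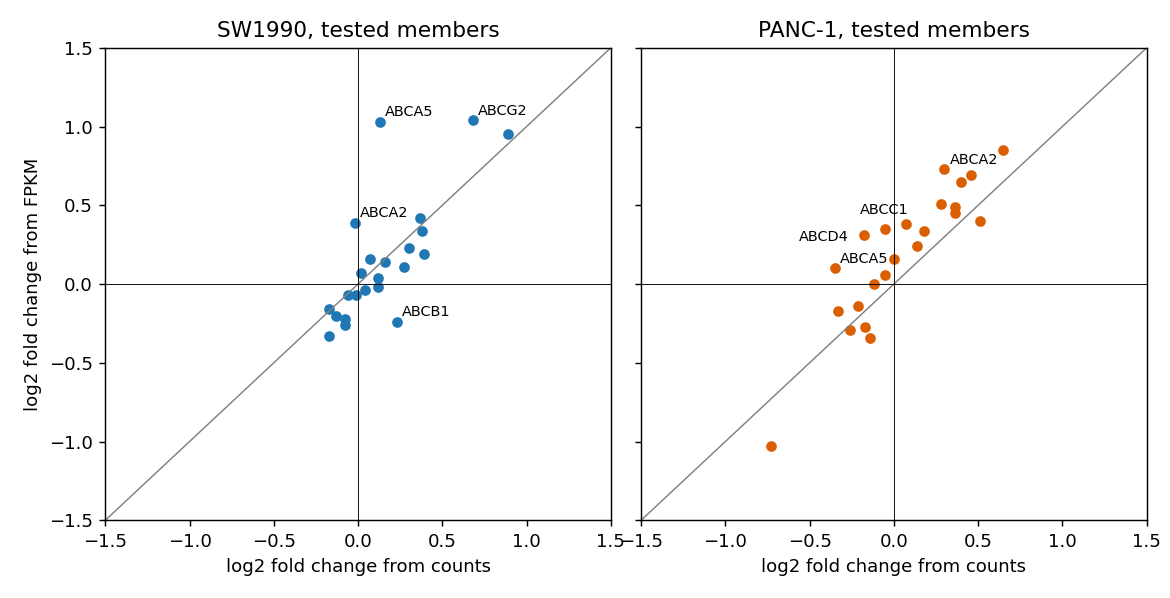
Log2 difference of irradiated against unirradiated libraries from counts (horizontal axis) and from FPKM (vertical axis) per ABC member shown, all tested, SW1990 at the left and PANC-1 at the right, with the line of equality. ABCB1 in SW1990 lies at 0.23 and −0.24, ABCC1 in PANC-1 at −0.05 and 0.35, and most PANC-1 members lie above the line.

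Family members under other symbols gave a like picture. TAP1, which with TAP2 carries peptides into the endoplasmic reticulum for antigen presentation, had 705, 828, 747 and 765 counts. TAP2 had 811, 784, 1888 and 1706 counts, with log2 differences of SW1990 against PANC-1 of −1.05 and −1.07 that were called lower. By total counts they were −0.83 and −0.99 and from FPKM −0.60 and −0.89, and neither call remained under either measure. CFTR, the chloride channel of the pancreatic duct, had 304 and 288 counts in SW1990 and 0 in both PANC-1 libraries. None of the 3 was called after radiation.

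Genes that regulate or work with the transporters were read from lists. Of 16 transcriptional regulators, 13 were tested in each line, and after radiation 1 was called lower in SW1990 and 1 higher and 1 lower in PANC-1, where 4.13% and 4.7% of all genes were called. NR1I2, NR1I3 and NR1H4, nuclear receptors that drive exporters in liver, were at 0 counts in all libraries. PPARA, a receptor for fatty acids, had 951 and 304 counts in SW1990 and 182 and 414 in PANC-1, and was called lower in irradiated SW1990 (−1.65) and higher in irradiated PANC-1 (1.32). FPKM gave PPARA differences of −0.49 and 0.31, which are past no 2-fold threshold. NFE2L2, which encodes the oxidative stress factor NRF2, had 892 and 1701 counts in SW1990 and 4823 and 1487 in PANC-1, and was called lower in irradiated PANC-1 (−1.57) and not called in SW1990 (0.92). PPARD stood at 0.61 and 0.28, and RXRB at −0.58 and 0.19. Of 22 partner genes, such as glutathione enzymes, peroxins and potassium channel subunits, 0 of 19 tested were called in SW1990 and 0 of 18 in PANC-1. KCNJ11, a channel subunit that assembles with sulfonylurea receptors, had 194 and 103 counts in SW1990 and 4 in each PANC-1 library, while its partner ABCC8 was at 0. LMBRD1 stood at −0.31 and 0.34, and GCLC at −0.33 and 0.29.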

How the data were processed

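RNA of 4 libraries was sequenced, 1 per line and treatment. Per the labels and methods, the authors trimmed reads with Trimmomatic 0.36, aligned them with HISAT2 2.0 to GRCh38 and computed expression with StringTie 1.3.3b. They deposited read counts without normalization and FPKM values, and the tool that made the counts is not given in the sources used here. The methods name an mRNA kit and the labels removal of ribosomal RNA. Of 59263 rows, 1089 named no gene (0.453% to 0.635% of the counts) and were left out.

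Deposited counts of 2 libraries were compared with edgeR 4.0.16 (R 4.3.3; exactTest at dispersion 0, library sizes equalised and values below 0 set to 0, TMM, Benjamini-Hochberg over all genes reaching an FPKM of 1 in either library, 0 set to 0.01). This compares libraries, not conditions. The thresholds follow the methods. The test does not, as the methods name DESeq2 (1.12.4) for the comparison. All 4 libraries were fitted with glmQLFTest after filterByExpr, with DESeq2 1.42.0 as an alternative. Both were run on simulated data, and no outcome of that is given here. Intervals of log2 fold changes are Clopper-Pearson, and those of differences in radiation response between the lines are normal approximations. Folds against 0 use 3 counts as the floor, and no fold is given where both libraries have 3 counts or fewer. Members, roles and lists were chosen with earlier results of these data known. Counts and FPKM are printed for drug exporters, the 3 highest members of each line, and members past 2-fold between lines with an FPKM of at least 1. Lists give up to 4 genes with the largest mean absolute log2 difference after radiation. Others named were chosen after their values were seen. Promoters came from RefSeq. Some members and list genes are not reported here by name and are left out of the figures, but stay in the counts, sums and medians.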

Additional observations from a re-analysis of the deposited data

Results flagged for a closer look

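Radiation differences pointed in opposite directions in SW1990 and PANC-1 for 3 members, with counting intervals that excluded 0 in each line. ABCA1 stood at 1.99 in SW1990 and −0.21 in PANC-1 on the log2 scale, from 10 and 40 counts in SW1990. ABCC1 stood at 0.30 and −0.05, with a sign in PANC-1 that turned under total count scaling and FPKM. ABCC3 stood at −0.17 and 0.36. Of the 23 members tested in both lines, 2 (ABCC1 and ABCC3) were opposite in this way, against 13.3% of 13173 genes, and ABCA1 was not tested in SW1990. With 1 library per group the differences between the lines were not tested beyond counting error. SW1990 minus PANC-1 gave 2.21 for ABCA1 (1.20 to 3.22), 0.35 for ABCC1 (0.27 to 0.44) and −0.53 for ABCC3 (−0.64 to −0.41). The intervals of these differences are normal approximations, not exact ones.

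The pseudogene row ABCA11P, outside the naming rule, held 518 counts over the 4 libraries. It had 153 and 165 in SW1990 and 156 and 44 in PANC-1, where the irradiated library was lowest.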

How the results depend on the processing

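With 1 library per group, no replicate could be left out. The labels carry no replicate numbers. Radiation was compared within lines by the fit of 4 libraries with line as a term. No member called after radiation in either line was also the result with DESeq2 size factors, total counts and an assumed coefficient of variation of 0.2. In SW1990, 2 members were called without the FPKM minimum, 2 at a fold of 1.5 and 1 from FPKM (ABCG2), and in PANC-1 1 was called at a fold of 1.5. By q-value alone, an alternative chosen after seeing the data, 10 were called in SW1990, 8 in PANC-1, and 25 between the unirradiated lines. The other line counts ranged from 8 (coefficient of variation of 0.2) to 16 (no minimum, or a fold of 1.5), with 13 by total counts, 6 higher and 7 lower. Total counts moved the median of all genes in the unirradiated line comparison by 0.21 on the log2 scale against TMM. The members' median in SW1990 was 0.07 by total counts, 0.11 by DESeq2 size factors, 0.03 from FPKM, and 0.12 both for members at an FPKM of at least 1 and for those with counts in both libraries. In PANC-1 it was 0.04, −0.01, 0.13, −0.04 and −0.04. Summed FPKM was 587 and 572 in SW1990 and 495 and 576 in PANC-1, so the order of the libraries differed from that by CPM.

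Signs turned after radiation for ABCB1 in SW1990 (−0.24 from FPKM), ABCC1 in PANC-1 (0.04 by total counts, 0.35 from FPKM), ABCA5 in PANC-1 (0.10 from FPKM), ABCC10 in SW1990 (0.00 by DESeq2 size factors) and ABCC4 in PANC-1 (−0.03 by DESeq2 size factors), and between the unirradiated lines for ABCC10 (0.02 from FPKM). The cause was not tested. Among the calls between the unirradiated lines, ABCD4 was lost with DESeq2 size factors, and ABCA5, ABCD3 and ABCD4 at a coefficient of variation of 0.2. The other values recomputed for single members did not include ABCD3 and ABCD4. Of these values, 245 kept their direction and stayed called or not called as before. Among them, FPKM put ABCA5 in SW1990 (1.03), ABCC6 in PANC-1 (1.44) and ABCC2 between the unirradiated lines (1.15) past 2-fold without a call. A further 27 gained a call and 1 (ABCA5 between lines, coefficient of variation of 0.2) lost it. Of the 27, 22 came from a lower or no fold threshold with the fold unchanged, 2 (ABCA1 and ABCA12) from dropping the FPKM minimum, and 3 from a fold past 2 by another measure (ABCC3 between lines by total counts and FPKM, ABCG2 in SW1990 from FPKM). Members at 3 counts or fewer are beyond what this depth can compare.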
